A study of Mus musculus with 6 samples.

Results

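Amino acid transporter transcripts were followed in MOC2 cells, a mouse head and neck squamous carcinoma line that carries no papillomavirus. The genes are the 42 of 55418 symbols in the count table whose name places them in the solute carrier families Slc1, Slc3, Slc7, Slc36, Slc38 or Slc43, and all 42 were kept whatever their level. In these 6 libraries of polyadenylated RNA, 3 are labelled EphA4 knockout and come from 1 clone named H3, and 3 are labelled CRISPR control. All were untreated, were grown with added EGF, hydrocortisone and insulin, were thawed and passaged before harvest, and carry the same batch label. Separate cultures are not stated for the samples of a group, so p-values here reflect sample-to-sample spread that may be purely technical. An effect of the edit and a peculiarity of this 1 clone cannot be told apart.

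Cells import amino acids through carriers that differ in what they accept and in what drives them. Slc1 and Slc38 carriers use the sodium gradient and load the cell with small neutral amino acids such as glutamine, or with glutamate. Slc7 carriers mostly exchange one amino acid for another, and many of them reach the membrane only as light chains joined by a disulfide bond to a heavy chain of the Slc3 family. Some Slc36 carriers use protons and several sit on lysosomes, and Slc43 carriers let large neutral amino acids pass by facilitated diffusion. Together they feed protein synthesis, glutathione production and the signal that amino acids give to the kinase complex mTORC1, and carcinoma cells are known for high levels of Slc7a5, Slc1a5 and Slc7a11.

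Library totals ran from 35115926 to 41775031 counts, so that 1 count equals 0.024 to 0.0283 CPM, the counts of a gene per 1000000 counts of its library, scaled by TMM factors for library composition. Epha4 transcripts go against the label, with 3483, 3815 and 3606 counts in the libraries labelled EphA4 knockout and 1907, 2110 and 2250 counts in control. Gene-level counts cannot tell whether the edit is present, and every direction here is that of the knockout-labelled libraries relative to control. Of 9 epithelial and squamous markers 7 were tested, 4 called higher and 3 lower, beside 32.7% and 38.8% of all tested genes. The keratin Krt8 averaged 1636.5 CPM in the knockout-labelled and 1339.9 CPM in the control libraries, and Krt18 had 961.6 CPM, against 842.9 CPM in control. The adhesion protein Cdh1 had 799.6 CPM, against 724.6 CPM in control, and Sfn had 108.1 CPM, against 56.6 CPM in control. Krt19 had 666.6 CPM in the knockout-labelled and 1697.8 CPM in the control libraries, and the adhesion protein Epcam had 626.6 CPM, against 953.8 CPM in control. The basal keratin Krt14 was low and lower still in the knockout-labelled libraries (1.83 CPM, against 3.72 CPM in control), and Krt5 and Trp63 had 0 and 2 counts in all the knockout-labelled and 2 and 2 counts in all the control libraries. Summed fibroblast markers had 1.93 to 2.03 CPM in the knockout-labelled and 48.3 to 51.4 CPM in the control libraries, with all 5 tested of 8 called lower beside 38.8% of all tested genes, though 4 of these passed the low-count filter only through control and had to be lower, while Lum was at 0 everywhere and Col1a2 had 29 counts in the knockout-labelled and 5 in the control libraries. Leukocyte markers summed to 7.72 to 8.95 CPM in the knockout-labelled and 4.67 to 5.1 CPM in the control libraries, with 3 of 8 at 0 everywhere, and nearly all of it was Csf1r, at 7.24 to 8.55 CPM in the knockout-labelled and 4.51 to 5.02 CPM in the control libraries. Endothelial markers summed to 0.599 to 1.25 CPM in the knockout-labelled and 1.33 to 1.62 CPM in the control libraries, with 1 of 6 at 0 everywhere. The part of such cells in the results was not tested, and in bulk RNA fewer cells of a type and less RNA per cell cannot be told apart. Knockout-labelled library 3 stands apart, where processed pseudogenes took 1.41% of the reads and elsewhere 0.255% to 0.307%, so calls that change without it are given below.

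Most transporters with measurable transcripts differed between the groups, in both directions, and the best expressed ones divided evenly. At an adjusted p of 0.05 in edgeR's quasi-likelihood test, 6 of 24 tested transporters were called higher, 12 lower and 6 neither, with a median log2 fold change of -0.28. Across all 15199 tested genes 71.5% were called, 32.7% higher and 38.8% lower, with a median of -0.04, so the share of 75.0% called among the transporters is near that of genes in general. Values of knockout-labelled and control libraries were fully separated for 20 of these 24 genes, and for 76.1% of all tested genes. Among the 15 members averaging 3 or more log2 CPM, 6 rose, 6 fell and 3 did not pass, beside 41.2% higher and 39.8% lower among all genes of that abundance. Of the 9 members below it, 6 fell, 0 rose and 3 did not pass, beside 37.2% lower among all genes that low, but 7 of the tested members passed the low-count filter only through the control libraries and so had to be lower. The members that passed only through control are Slc1a1, Slc1a3, Slc7a4, Slc7a7, Slc36a4, Slc38a3 and Slc43a1. A log2 fold change of -1 or less was called for 8 of the 24 tested members, beside 20.1% of all tested genes. Apart from Slc7a11 and Slc43a2, all of these 8 are among the members that passed only through control. Without knockout-labelled library 3 the counts were again 6 higher and 12 lower, with Slc1a3 called and Slc1a5 not.

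**Figure D1:**
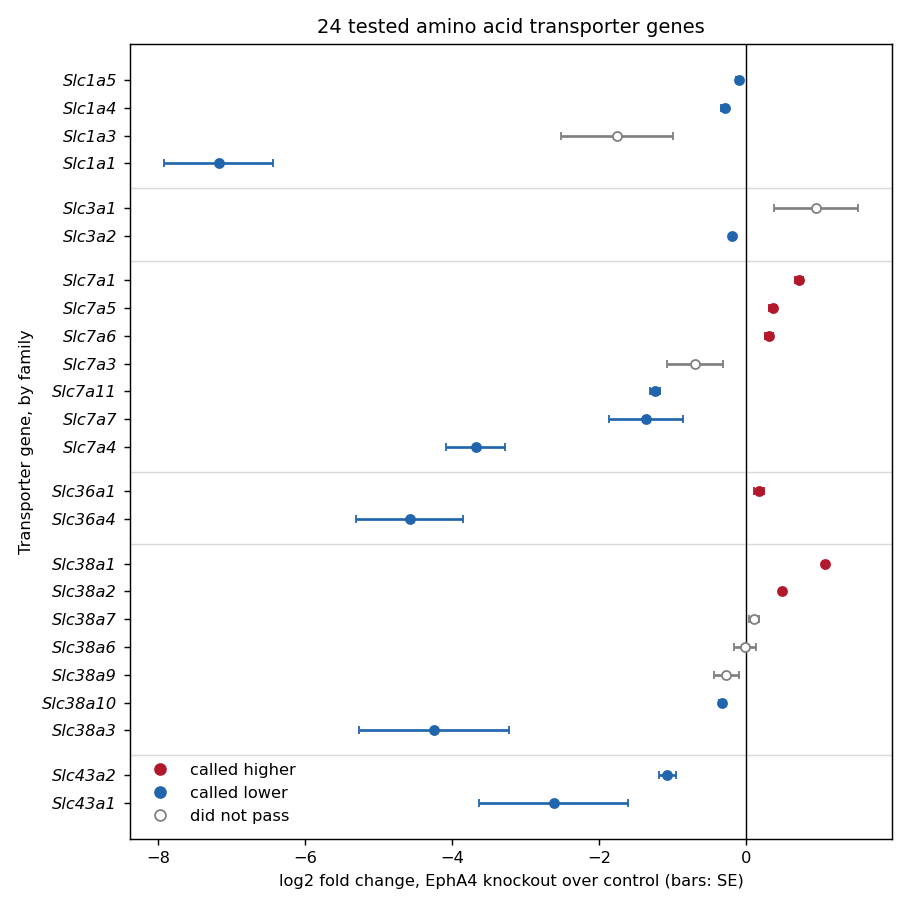
Log2 fold change of the knockout-labelled libraries over control for the 24 tested transporter genes, grouped by family, with bars for the SE; red and blue points passed an adjusted p of 0.05, open points did not. The called rises lie between 0.18 and 1.08, while the called falls reach from -0.10 to -7.18. Every fall larger than that of Slc7a11 (-1.24) belongs to a member that passed the low-count filter only through control and so had to be lower.

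The largest rise among called members was that of a sodium-coupled neutral carrier of the Slc38 family, in which 2 of 7 tested members rose. Slc38a1, which brings glutamine and other small neutral amino acids into the cell, had 222.6, 233.9 and 232.4 CPM in the knockout-labelled libraries, against 104.9, 113.4 and 108.4 CPM in control. Every knockout-labelled value was above every control value, and the log2 fold change was 1.08 (SE 0.04, adjusted p = 4.9e-08), a 2.11-fold rise. It was the only member called higher with a log2 fold change of at least 1, a class that holds 10.3% of all tested genes. Slc38a2, the related carrier that cells induce when amino acids are short, had 273.3, 266.2 and 272.8 CPM, against 196.0, 194.0 and 190.0 CPM in control. It rose 1.40-fold (log2 fold change 0.49, SE 0.03, adjusted p = 1.2e-06), again without overlap.

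The other Slc38 members did not follow these genes. Slc38a10, a less studied member, had 165.4, 157.7 and 172.5 CPM in the knockout-labelled libraries and 215.6, 204.3 and 204.0 CPM in control, and fell by 0.33 on the log2 scale (SE 0.04, adjusted p = 0.00011). Of the members tied to lysosomes, Slc38a7, which exports glutamine from them, averaged 48.8 ± 3.38 CPM in the knockout-labelled and 45.1 ± 2.12 CPM in the control libraries (SD, n = 3 each). Slc38a9, the arginine sensor that acts on mTORC1, averaged 8.75 ± 1.51 CPM in the knockout-labelled and 10.6 ± 1.35 CPM in the control libraries. Their log2 fold changes of 0.11 (SE 0.07) and -0.27 (SE 0.17) did not pass (adjusted p = 0.15 and 0.18), although Slc38a7 passed without knockout-labelled library 2 (log2 fold change 0.20, adjusted p = 0.032). Slc38a6 had 9.39 ± 0.89 CPM in the knockout-labelled and 9.51 ± 1.34 CPM in the control libraries, a log2 fold change of -0.02 (SE 0.15). Slc38a3, a carrier of glutamine, histidine and asparagine best known from liver and kidney, had 0, 3 and 0 counts against 10, 31 and 25 counts in control. It passed the low-count filter only through control and so had to be lower. With so few reads the 21.1-fold lower level has a 95% interval from counting error of 6.91 to 104.9, and its fall passed the test (adjusted p = 0.0048), with a fitted log2 fold change of -4.25 that ran from -7.44 to -3.66 over the alternatives, the lowest without knockout-labelled library 2, which holds its 3 counts there, and the highest without knockout-labelled library 3.

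**Figure D2:**
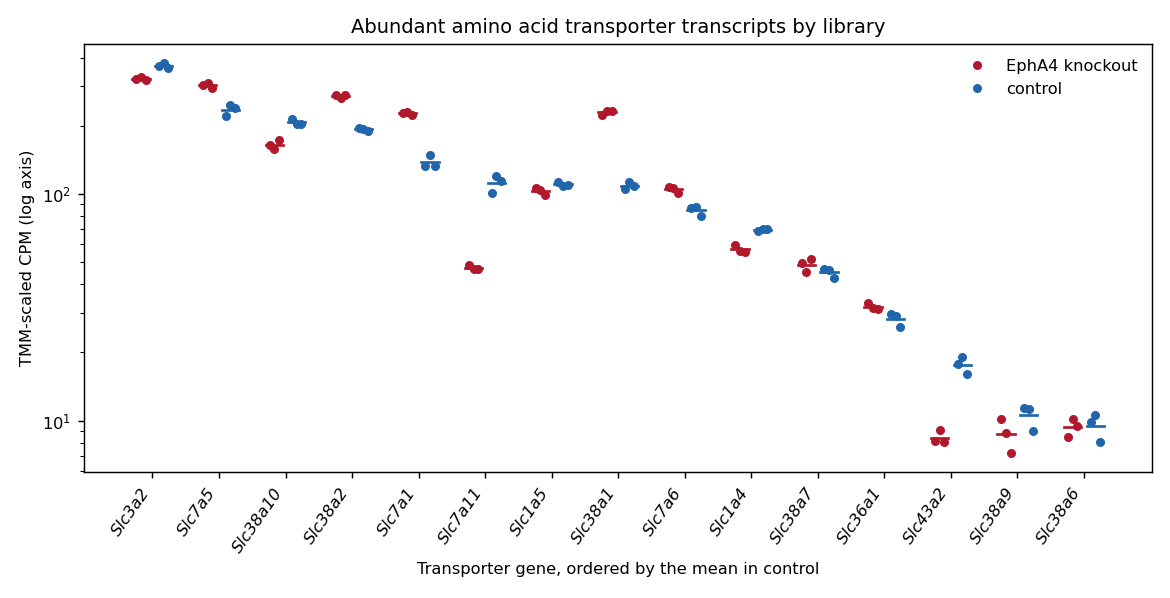
TMM-scaled CPM on a log axis in each library for the 15 transporter genes averaging 3 or more log2 CPM, red for knockout-labelled and blue for control libraries, with a line at each mean. Slc38a1, Slc7a1 and Slc38a2 lie furthest above and Slc7a11 and Slc43a2 furthest below their control values. Several others, such as Slc7a5, Slc7a6, Slc3a2, Slc1a4 and Slc38a10, also differ by more than the spread within either group.

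Within the Slc3 and Slc7 families the heavy chain fell slightly while its light chains moved apart. Slc3a2, the heavy chain also known as CD98, had 321.8, 329.0 and 317.6 CPM in the knockout-labelled libraries, against 366.2, 377.3 and 361.7 CPM in control. Although small, this fall of 0.19 on the log2 scale (SE 0.03, adjusted p = 0.00076) left no overlap. Without knockout-labelled library 3 it was -0.12, with an adjusted p of 0.02. Slc3a1, the heavy chain of kidney and gut, had only 12, 33 and 19 counts in the knockout-labelled libraries against 10, 6 and 19 in control, and did not pass (log2 fold change 0.95, SE 0.57, adjusted p = 0.16); reads of Prepl, whose exons overlap it on the other strand and which averaged 32.4 CPM in the knockout-labelled and 37.7 CPM in the control libraries, cannot be told apart from its own. Slc3a1 passed the low-count filter only through the knockout-labelled libraries, which favoured a higher value there. Its partners in kidney, Slc7a9 and Slc7a13, had 0 counts in every library.

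The light chain that imports cystine fell most among the abundant members, and the light chain that imports leucine rose. Slc7a11, which exchanges glutamate for cystine and so supplies glutathione synthesis, had 48.9, 46.5 and 46.5 CPM in the knockout-labelled libraries, against 101.0, 119.7 and 114.2 CPM in control. All knockout-labelled values were below all control values, and it was 2.36-fold lower (log2 fold change -1.24, SE 0.07, adjusted p = 3.7e-07). Slc7a5, the exchanger of large neutral amino acids such as leucine, had 302.9, 308.4 and 295.2 CPM, against 220.6, 246.6 and 239.7 CPM in control. It rose 1.28-fold without overlap (log2 fold change 0.36, SE 0.05, adjusted p = 9.96e-05). Slc7a6, which exchanges cationic for neutral amino acids, had 107.7, 106.9 and 101.4 CPM in the knockout-labelled libraries against 86.7, 87.9 and 80.4 CPM in control, and rose 1.24-fold (log2 fold change 0.31, SE 0.05, adjusted p = 0.00034). Its close relative Slc7a7 had 12, 5 and 11 counts in the knockout-labelled libraries against 29, 25 and 21 in control, and its fall of 1.36 on the log2 scale (SE 0.50, adjusted p = 0.035) did not pass without control library 1, 2 or 3 (log2 fold changes -1.18, -1.28 and -1.48, adjusted p = 0.11, 0.097 and 0.055) or without knockout-labelled library 2 (-1.02, adjusted p = 0.12). The call was also lost with DESeq2 (adjusted p = 0.074), with no filter (adjusted p = 0.12) and with the replicate block (adjusted p = 0.08). Slc7a7 also passed the low-count filter only through control. Exons of Oxa1l, a gene of the mitochondrial inner membrane, overlap Slc7a7 on the other strand, and Oxa1l itself fell by 1.09 on the log2 scale, with 983 to 1073 counts in the knockout-labelled and 2004 to 2528 in the control libraries. Reads of these genes cannot be told apart where their exons overlap.

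Levels of different genes were compared as CPM per kilobase of the longest annotated coding transcript. The 4 tested light chains of Slc3a2 summed to 120.3, 121.3 and 116.1 CPM per kilobase in the knockout-labelled libraries, against 97.1, 106.9 and 102.2 in control, while Slc3a2 had 114.4, 117.0 and 112.9 CPM per kilobase in the knockout-labelled libraries against 130.2, 134.1 and 128.6 in control. Light chain transcripts per heavy chain transcript thus averaged 1.04 ± 0.0117 in the knockout-labelled libraries and 0.779 ± 0.0286 in control (SD, n = 3 each), with no overlap. With lengths taken over all annotated exons the ratio was 1.18 in the knockout-labelled and 0.866 in the control libraries, so the direction but not the value is independent of the choice of length. Slc7a11 made up 4.41%, 4.15% and 4.34% of the light chain sum, against 11.3%, 12.1% and 12.1% in control. The share of Slc7a5 was 72.1 ± 0.40% in the knockout-labelled and 65.6 ± 1.06% in the control libraries. That of Slc7a6 was 23.5 ± 0.30% in the knockout-labelled and 22.2 ± 1.44% in the control libraries, with overlap. These are transcript ratios, and protein at the membrane was not measured.

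**Figure D3:**
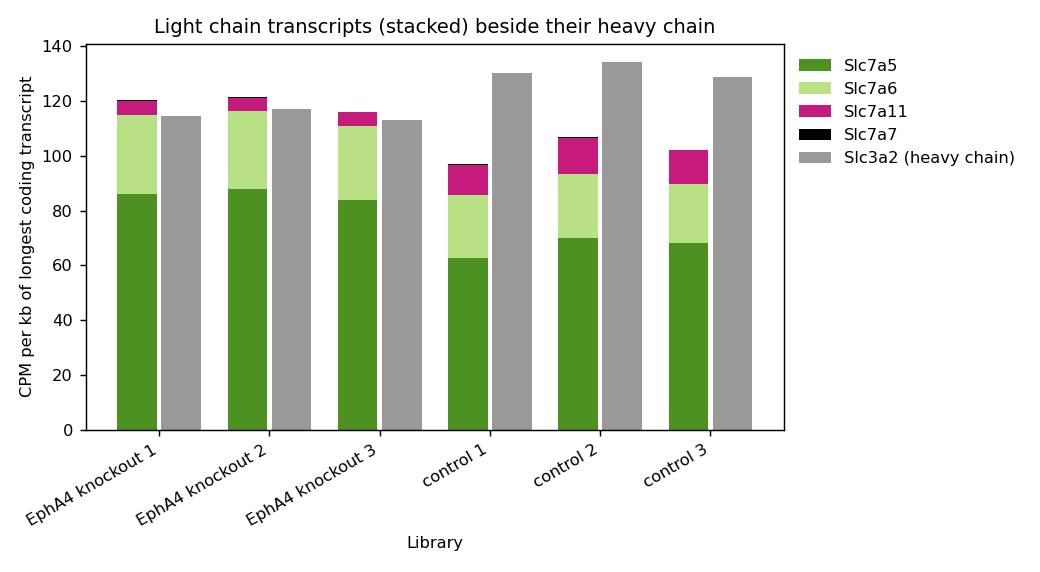
CPM per kilobase of coding transcript in each library for the light chains Slc7a5, Slc7a6, Slc7a11 and Slc7a7 (stacked bars) and for their heavy chain Slc3a2 (grey bars). The stack is taller than the grey bar in the 3 knockout-labelled libraries and shorter in the 3 control libraries, and the Slc7a11 layer is thinner in the knockout-labelled ones.

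Promoter sequences are shown for 5 called members, because genes that share an upstream factor often share short motifs near their starts. Each window shown holds a match to a motif searched below, so these windows do not stand for all called members. Windows of the called members Slc1a1, Slc3a2, Slc36a4, Slc38a10 and Slc43a2, and another window of Slc7a1, hold no match and are not shown. Each window holds 300 bases of RefSeq sequence on build GRCm38.p6, from 250 before to 50 after the annotated start, and is printed on the gene's own strand with motif matches in capitals. The windows are Slc7a11 at chr3:50443564-50443863 (minus strand), Slc1a4 at chr11:20332664-20332963 (minus strand), Slc7a1 at chr5:148399855-148400154 (minus strand), Slc38a2 at chr15:96699679-96699978 (minus strand) and Slc36a1 at chr11:55204090-55204389 (plus strand).
Slc7a11: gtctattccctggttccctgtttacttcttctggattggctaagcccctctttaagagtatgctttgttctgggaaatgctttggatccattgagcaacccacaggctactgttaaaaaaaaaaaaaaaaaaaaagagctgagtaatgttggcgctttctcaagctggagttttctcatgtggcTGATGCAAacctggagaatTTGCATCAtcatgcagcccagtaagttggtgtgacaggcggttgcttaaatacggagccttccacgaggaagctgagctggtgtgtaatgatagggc
Slc1a4: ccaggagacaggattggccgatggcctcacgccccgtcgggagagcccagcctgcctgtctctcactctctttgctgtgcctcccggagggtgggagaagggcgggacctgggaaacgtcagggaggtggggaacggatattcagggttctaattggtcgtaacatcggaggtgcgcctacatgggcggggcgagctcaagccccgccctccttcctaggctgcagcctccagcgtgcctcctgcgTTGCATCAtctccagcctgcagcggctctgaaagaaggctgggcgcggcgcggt
Slc7a1: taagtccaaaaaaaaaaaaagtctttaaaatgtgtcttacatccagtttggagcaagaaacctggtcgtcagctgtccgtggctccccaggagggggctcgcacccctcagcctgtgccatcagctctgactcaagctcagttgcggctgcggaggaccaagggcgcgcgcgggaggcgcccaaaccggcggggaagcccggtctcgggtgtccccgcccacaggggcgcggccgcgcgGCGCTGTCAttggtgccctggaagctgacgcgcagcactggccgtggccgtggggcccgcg
Slc38a2: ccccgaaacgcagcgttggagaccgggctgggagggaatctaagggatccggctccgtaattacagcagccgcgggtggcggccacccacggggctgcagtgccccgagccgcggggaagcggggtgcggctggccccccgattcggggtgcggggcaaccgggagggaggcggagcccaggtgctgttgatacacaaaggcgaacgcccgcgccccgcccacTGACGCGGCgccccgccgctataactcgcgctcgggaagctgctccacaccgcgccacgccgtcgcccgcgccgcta
Slc36a1: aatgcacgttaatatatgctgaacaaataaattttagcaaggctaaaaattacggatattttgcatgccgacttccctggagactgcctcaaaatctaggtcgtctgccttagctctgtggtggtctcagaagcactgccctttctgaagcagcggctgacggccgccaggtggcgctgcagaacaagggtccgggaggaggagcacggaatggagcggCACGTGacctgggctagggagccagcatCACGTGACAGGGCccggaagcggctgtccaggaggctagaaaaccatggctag

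The motifs searched on both strands were TGATGNAA, the core of elements bound by ATF4 with C/EBP factors, CACGTG, the E-box read by MYC, TFEB and others, and TGACNNNGC, the core of antioxidant response elements bound by NRF2. They occurred in 3.97%, 7.15% and 12.4% of all 32851 RefSeq promoter windows of the same length, and in at least 1 window of 4.51%, 8.09% and 14.0% of the 27025 genes with one. Windows were given for 31 of the 42 members and for 18 of the 24 tested ones, and a member counts as holding a motif when any of its windows does, as in the shares of genes. The 6 tested members without a window are Slc38a1 and Slc7a5, called higher, Slc1a5, Slc7a4 and Slc38a3, called lower, and Slc7a3, which did not pass. Bases outside the windows were not searched, so a member without a match may hold the motif elsewhere. TGATGNAA was found for 3 members, Slc7a11, Slc1a4 and Slc7a7, in 2 of the 5 windows of the last: 0 of 4 that rose and have a window, 3 of 9 that fell, 0 of 5 that did not pass and 0 of 13 not tested. Slc7a11 holds it in both orientations, as TGATGCAA at -66 and as TTGCATCA at -47 from the start, and Slc1a4 holds TTGCATCA at -4. TGACNNNGC was found in the 4 risen members with a window, Slc7a1, Slc7a6, Slc38a2 and Slc36a1, in 1 of 9 that fell, Slc43a1, and in 0 of the others. CACGTG was found in 1 of 4 that rose, 1 of 9 that fell, 1 of 5 that did not pass and 4 of 13 not tested. Slc36a1 holds CACGTG at -31 and -3, the second overlapping its TGACAGGGC at 2. With so few windows these matches are a description of the letters, and binding of a factor was not measured.

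Carriers of cationic amino acids, the Slc7 members that need no heavy chain, differed in level and in direction. Slc7a1, the main importer of arginine and lysine in dividing cells, had 227.2, 230.7 and 223.3 CPM in the knockout-labelled libraries, against 133.1, 148.6 and 133.0 CPM in control. It rose 1.64-fold (log2 fold change 0.72, SE 0.05, adjusted p = 1.4e-06) without overlap. Slc7a4, a related protein with no settled substrate, was low in both groups, with 8, 7 and 10 counts in the knockout-labelled libraries against 157, 94 and 85 in control. Having passed the low-count filter only through control, it had to be lower, and was so by 12.9-fold (log2 fold change -3.68, SE 0.40, adjusted p = 3.6e-05). Slc7a3 had 18, 17 and 16 counts in the knockout-labelled libraries against 35, 24 and 27 in control and did not pass (log2 fold change -0.69, SE 0.38, adjusted p = 0.13), and Slc7a2 had 0 counts in the knockout-labelled and 4 counts in the control libraries.

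In the Slc1 family the neutral carrier Slc1a4 fell slightly and the glutamate carrier Slc1a1 was nearly lost, while the fall called for Slc1a5 was lost on leaving out any library. Slc1a1, a high-affinity importer of glutamate that also takes up cysteine, had 0, 0 and 2 counts in the knockout-labelled libraries, against 138, 84 and 138 counts in control. It passed the low-count filter only through control and so had to be lower. By these counts its level was 172.6-fold lower (95% interval from counting error, 47.4 to 1431.0), and the fall passed the test (adjusted p = 2.4e-05). The fitted log2 fold change of -7.18 ran from -9.85 to -6.65 over the alternatives, the lowest without knockout-labelled library 3, which holds both counts and leaves 0 in that group. Per kilobase of coding transcript it had 0.826 ± 0.181 CPM in control, where Slc1a5 had 40.0 ± 0.69. Slc1a4, a carrier of alanine, serine and cysteine, had 59.6, 55.9 and 55.6 CPM, against 68.6, 70.4 and 70.4 CPM in control, a fall of 0.29 on the log2 scale (SE 0.05, adjusted p = 0.00042).

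Slc1a5, the exchanger best known for glutamine, had 106.3, 104.2 and 99.4 CPM in the knockout-labelled libraries, against 112.6, 108.8 and 110.1 CPM in control. Its difference of -0.10 on the log2 scale (SE 0.04) lay at the threshold, with an adjusted p of 0.0498. The call was lost on leaving out any library: the log2 fold change was -0.09, -0.07 and -0.01 without knockout-labelled library 1, 2 and 3 (adjusted p = 0.18, 0.34 and 0.84), and -0.04, -0.08 and -0.05 without control library 1, 2 and 3 (adjusted p = 0.47, 0.29 and 0.34). Of 14 alternatives, 3 kept it. Slc1a3, another glutamate carrier, had 3, 1 and 12 counts in the knockout-labelled libraries against 23, 16 and 18 in control. It did not pass (log2 fold change -1.76, SE 0.76, adjusted p = 0.065), but did without knockout-labelled library 3, which holds the 12 counts (log2 fold change -3.05, adjusted p = 0.0027). With limma-voom on all 6 libraries it also passed (log2 fold change -2.20, adjusted p = 0.024).

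The tested carriers of the Slc36 family went opposite ways. Slc36a1, which exports small amino acids from lysosomes, had 33.0, 31.4 and 31.2 CPM in the knockout-labelled libraries, against 29.7, 28.9 and 25.9 CPM in control. Its rise of 1.13-fold (log2 fold change 0.18, SE 0.07, adjusted p = 0.044) did not pass without control library 2 or 3 (log2 fold changes 0.23 and 0.17, adjusted p = 0.06 and 0.055) or without knockout-labelled library 1 or 2 (0.18 and 0.22, adjusted p = 0.096 and 0.061). It was also not called with library size alone, upper-quartile factors or no filter. Slc36a4, which carries proline and tryptophan, had 7, 0 and 6 counts in the knockout-labelled libraries against 129, 89 and 117 in control and fell (log2 fold change -4.58, SE 0.73, adjusted p = 0.00042), by 3.97 without knockout-labelled library 2. Slc36a4 passed the low-count filter only through control and so had to be lower. The groups are far apart, at 0.12 ± 0.105 CPM in the knockout-labelled and 2.94 ± 0.49 CPM in the control libraries.

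Both tested facilitated carriers of the Slc43 family were called lower, beside 38.8% of all tested genes. Of these, Slc43a1 passed the low-count filter only through control and so had to be lower. Slc43a2, which passes leucine, phenylalanine and methionine, had 8.14, 9.08 and 8.03 CPM in the knockout-labelled libraries, against 17.8, 19.1 and 16.0 CPM in control. It was 2.09-fold lower (log2 fold change -1.07, SE 0.11, adjusted p = 2.7e-05), without overlap. Slc43a1, its close relative, had 15, 2 and 0 counts in the knockout-labelled libraries against 63, 27 and 20 in control. The spread within each group was wide, and the fall (log2 fold change -2.62, SE 1.01, adjusted p = 0.043) did not pass without control library 1, 2 or 3 (-1.91, -2.72 and -2.90, adjusted p = 0.19, 0.089 and 0.067) or without knockout-labelled library 2 (-2.16, adjusted p = 0.12). Without knockout-labelled library 1, which holds 15 of its counts, it was -4.98 (adjusted p = 0.0036), and without knockout-labelled library 3 it was -1.98 (adjusted p = 0.015). Slc43a3, known as a carrier of purine nucleobases, was below the low-count filter, with 0 counts in the knockout-labelled and 13, 8 and 6 in the control libraries, which is at least 8.63-fold lower when the empty group is set to 3 counts in all.

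**Figure D4:**
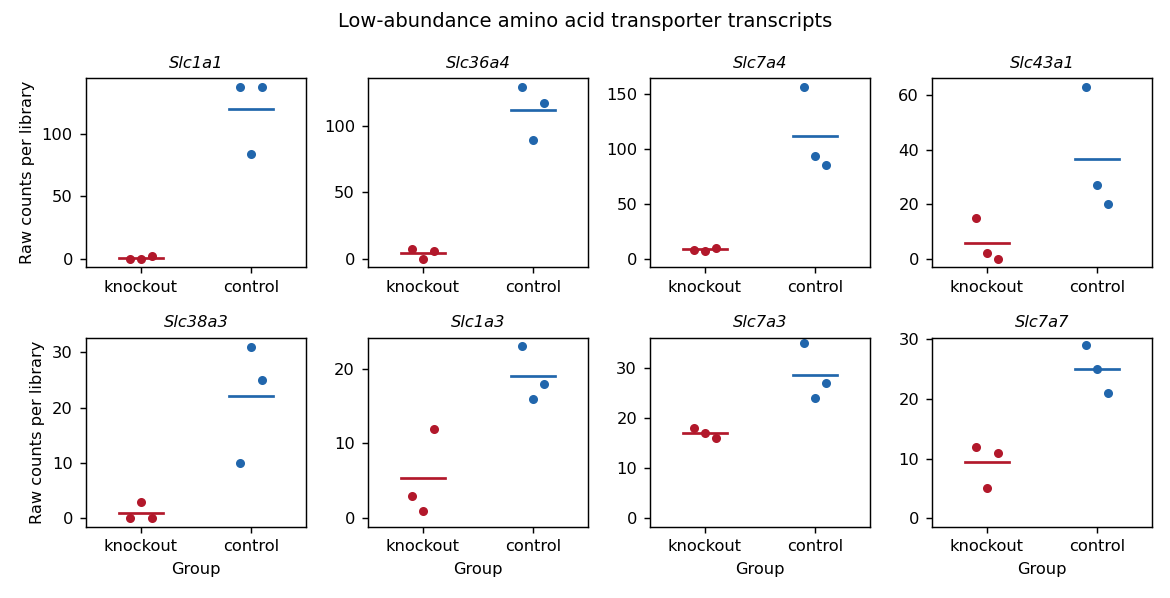
Raw counts in each library for the 8 transporter genes named in the panels, red for knockout-labelled and blue for control libraries, with a line at each mean. Slc1a1, Slc36a4 and Slc7a4 had 0 to 10 counts in the knockout-labelled and 84 to 157 in the control libraries.

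Of the 18 members not tested, 13 had fewer than 10 counts over all libraries and 5 had more. At 0 counts everywhere were 9 genes, Slc1a6, Slc7a9, Slc7a10, Slc7a12, Slc7a13, Slc36a2, Slc36a3, Slc38a5 and Slc38a11, which allows a level of up to 0.0134 CPM over the 6 libraries. Slc38a8, Slc7a2, Slc7a14 and Slc7a15 had 1, 4, 7 and 4 counts in all. Slc1a2, the glutamate carrier of astrocytes, had 15 counts in the knockout-labelled and 20 in the control libraries, and Slc7a8, another light chain of Slc3a2, had 15 in the knockout-labelled and 3 in the control libraries. Slc38a4 and Slc1a7 had 6 and 3 counts in the knockout-labelled and 10 and 12 in the control libraries. These genes were below the low-count filter and were not tested in the fit reported here.

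The order of levels per kilobase changed below the leading pair. Slc3a2 ranked first and Slc7a5 the second in both groups, whichever length was used. In the knockout-labelled libraries Slc38a2 followed at 58.1 ± 0.86 CPM per kilobase, then Slc1a5 (37.4 ± 1.29) and Slc38a10 (36.1 ± 1.62), whose values overlapped, and then Slc7a1 (31.6 ± 0.51) and Slc38a1 (31.6 ± 0.85), which overlapped as well. In control Slc38a10 came next at 45.4 ± 1.44, then Slc38a2 (41.5 ± 0.66) and Slc1a5 (40.0 ± 0.69), with Slc7a1 (19.3 ± 1.25) at rank 7 and Slc38a1 (15.0 ± 0.59) at rank 9 of 24. Slc7a11 stood at rank 12 in the knockout-labelled and 11 in the control libraries. With lengths over all exons Slc38a1 ranked 9 in the knockout-labelled and 11 in the control libraries, since its annotated exons span 17236 bases against 7266 in its longest coding transcript, so ranks in the middle depend on the length used.

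Genes that act beside these carriers were read from 7 lists, set beside the 32.7% of all tested genes called higher and the 38.8% called lower. The lists were chosen with earlier results of these data known, so their shares are a description and no test. The list of targets of ATF4, the transcription factor that raises many transporter genes when amino acids are short, was the most one-sided. Its 20 genes, all tested and none of them a transporter, were called lower, with a median log2 fold change of -1.55; 3 of them passed the low-count filter only through the control libraries and so had to be lower, and 5 stand in another of the lists as well. Nupr1, Ddit4, Stc2 and Vegfa had log2 fold changes of -4.25, -4.07, -4.47 and -2.13. Asns, the enzyme that makes asparagine, averaged 143.4 ± 8.23 CPM in the knockout-labelled and 338.9 ± 9.89 CPM in the control libraries (SD, n = 3 each). The list does not hold every known target: of the serine synthesis genes that ATF4 is also known to raise, Psat1 rose by a log2 fold change of 0.30, and Phgdh and Shmt2 had -0.04 and -0.05 and did not pass (adjusted p = 0.46 and 0.18). Likewise, transporters often listed as ATF4 targets went both ways: Slc7a11, Slc3a2, Slc1a4 and Slc6a9 fell, while Slc7a5, Slc7a1 and Slc38a2 rose.

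Regulators of transporter genes rose in 5 of 13 and fell in 6, or 38.5% and 46.2%. Atf4 itself fell by 0.45 on the log2 scale (SE 0.05, adjusted p = 6.6e-05), while Myc did not pass (log2 fold change 0.04, SE 0.04, adjusted p = 0.34). The kinases Eif2ak1 and Eif2ak2, which slow translation under stress, had log2 fold changes of 0.91 and -1.12, and Tfeb, a factor that raises lysosomal genes, had -2.25.

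Of 17 tested amino acid synthesis genes 4 rose and 10 fell, or 23.5% and 58.8%, with 82.4% called beside 71.5% of all tested genes. Among those that fell, Cth passed the filter only through control and so had to be lower. Pycr1, of proline synthesis, Psph, of serine synthesis, and Gpt2, of alanine synthesis, had log2 fold changes of -2.04, -1.46 and -1.69. Breakdown and polyamine genes had 6 higher and 10 lower of 16, or 37.5% and 62.5%. Arg1, which splits arginine, averaged 2.35 ± 0.27 CPM in the knockout-labelled and 71.3 ± 5.70 CPM in the control libraries, while Mat2a, which turns methionine into S-adenosylmethionine, rose to 229.6 ± 13.9 CPM, against 49.3 ± 1.81 CPM in control. Gls2, a glutaminase, and Sat1, which acetylates polyamines, had log2 fold changes of -1.36 and -1.61. Cystine and glutathione genes had 3 higher and 10 lower of 16, or 18.8% and 62.5%, and 2 of them passed the filter only through control. Gpx4, which removes lipid peroxides using glutathione, had a log2 fold change of -0.89, Chac1, which breaks glutathione down, one of -0.92, Slc25a39, which carries it into mitochondria, one of -0.51, and Gclm, of glutathione synthesis, one of 0.56.

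Sensing genes that report amino acids to mTORC1 had 13 higher and 13 lower of 30, or 43.3% each. The arginine sensor Castor1 and its relative Castor2 had log2 fold changes of -2.04 and -1.72, Sesn3, of the sestrin family that restrains mTORC1, one of -2.52, and Nprl2, of the complex that restrains the Rag GTPases, one of -1.33. Among those that rose were Fnip2, a partner of folliculin, and the Rag GTPase Rragb, with log2 fold changes of 1.25 and 1.30. Other amino acid carriers rose in 6 of 15 and fell in 4, or 40.0% and 26.7%. Among those that fell, Slc6a15 passed the filter only through control and so had to be lower. Slc6a6, the taurine importer, Pqlc2, a lysosomal exporter of cationic amino acids, and Slc25a44, a mitochondrial carrier of branched-chain amino acids, rose by log2 fold changes of 0.64, 0.67 and 1.06, and Slc6a9, a glycine importer, had one of -1.91.

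**Figure D5:**
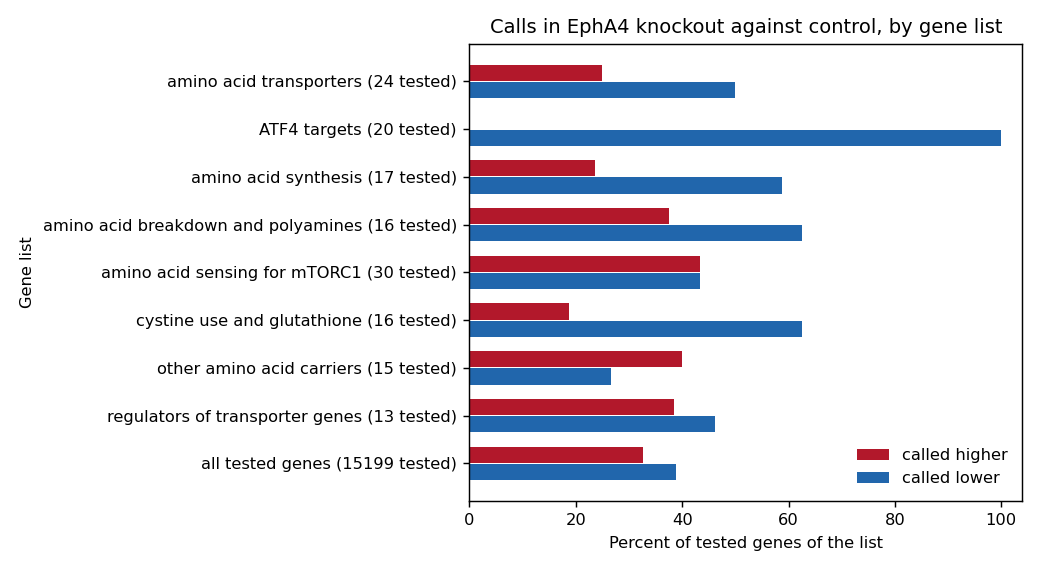
Percent of tested genes called higher (red) or lower (blue) in the knockout-labelled libraries for the transporters, 7 lists of genes that act beside them and all 15199 tested genes. All 20 ATF4 targets were called lower, the transporters had 6 higher and 12 lower of 24, and all tested genes had 32.7% higher and 38.8% lower. The lists were chosen with earlier results of these data known.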

How the data were processed

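RNA was measured in 6 libraries, 3 per group. The deposited file holds raw read counts by gene symbol, which the authors did not normalize. The submitters' processing notes name STAR and GRCm39. How reads were counted, with what annotation and strand setting, is not stated in these sources, so reads of overlapping genes cannot be told apart. The 55418 symbols of the counts are exactly the symbols of GENCODE M21, which was used here for transcript lengths, gene types and exon overlaps only. Groups follow the sample titles.

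Genes were filtered with filterByExpr (0.27 CPM in 3 libraries), scaled by TMM and tested with edgeR 4.0.16 under R 4.3.3 (quasi-likelihood, two-sided, group only), at a Benjamini-Hochberg adjusted p of 0.05 over 15199 genes. SE is the absolute log2 fold change over the square root of F. Folds with 1 to 3 counts have exact 95% binomial intervals; intervals and floors cover counting error only. Chi-square per degree of freedom was 4.57 or more for every replicate pair, so none was a duplicate.

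Members and lists were chosen with earlier results of these data known. Values in every sample were given for called members averaging 3 or more log2 CPM, or a log2 fold change of at least 2 in size and 1 CPM in every library of a group, and for heavy chains and tested light chains; other members have counts or means. Lists name up to 4 called genes of average log2 CPM of at least 3 by size of change. Myc, Psat1, Phgdh, Shmt2, Fnip2, Rragb, Csf1r, Krt14, Krt18 and Cdh1 were named after their values were seen. Alternatives were 3 other scalings, no filter, 5 CPM in 3 libraries, limma-voom 3.58.1, DESeq2 1.42.0, a replicate block and each library left out. On simulated counts for this comparison (15191 genes), 26, 35, 40 and 49 of 50 genes were recovered at 1.5-, 2-, 4- and 32-fold, with 8.54% of calls false. Only 200 genes were simulated as changed and control means were set to at least 1 CPM, whereas 71.5% of tested genes were called in the data. These rates therefore do not carry over to the comparison itself, or to members below 1 CPM.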

Additional observations from a re-analysis of the deposited data

How the results depend on the processing

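Of the 24 tested transporters, 18 had the same call under every one of the 14 alternatives that could test them. The others were Slc1a3, Slc1a5, Slc7a7, Slc36a1, Slc38a7 and Slc43a1, and no call reversed. Counts of risen transporters ran from 5 to 6 and of fallen ones from 9 to 12 on leaving out 1 library; DESeq2 gave 6 and 10. A filter of 5 CPM in 3 libraries left 15 transporters to test, of which 5 fell. It also left 2 of the other amino acid carriers called lower, against 4, and 3 fibroblast markers called lower, against 5, since fewer genes were tested. With no filter 2 epithelial markers were called higher, against 4, and the cause was not tested. Leukocyte markers called higher ran from 1 to 2 without 1 library. Other scalings moved the median of all genes from -0.04 to between -0.05 and 0.00 and the split of calls over all genes little (5158 higher and 5737 lower with relative log expression factors, 4963 and 5904 in the fit reported). With the replicate block 6 transporters rose and 10 fell, and 4624 and 5715 of all genes; same-numbered samples did not deviate together (correlations -0.00286, 0.0291 and 0.00829), and the samples share only a number. With no filter 33 transporters could be tested, and 5 were called higher and 12 lower.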
